A study of Homo sapiens with 9 samples.

Results

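The genes of the Notch pathway described here were 10 in number: the receptors NOTCH1, NOTCH2 and NOTCH3, the ligands JAG1, JAG2 and DLL1, the receptor modifier LFNG, and HES1, HEY1 and NRARP, which are known to be transcribed when the pathway is active. They were picked by symbol, by a rule that uses no measured value, but earlier results of these data were known when the genes were chosen. All 10 were listed in each of the 9 libraries, out of 16199 genes listed in at least 1 library, and all 10 passed the filter on low counts. RNA was sequenced from HaCaT cells, an immortalized human keratinocyte line labelled wild type. Confluent cultures were kept for 24 h in serum-free medium alone (untreated), with epidermal growth factor (EGF, 10 nM) or with bleogen pB1 (1 µM), a peptide of the cactus Pereskia bleo described by the study as an EGF receptor agonist. Each group had 3 replicates. No label says that they were separate cultures, so the p-values measure the spread between these libraries, which may be technical. The doses of the agents differed, so that a comparison between EGF and bleogen pB1 is one at these doses.

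Notch receptors and their ligands both sit in cell membranes, and a ligand on one cell binds a receptor on its neighbour. Binding leads to cleavage of the receptor by an ADAM protease and then by γ-secretase, and the freed intracellular domain joins the DNA-binding protein RBPJ and a Mastermind coactivator on target genes. In the epidermis, Notch signalling is known for driving keratinocytes out of the basal layer and into differentiation. Signalling through the EGF receptor is known for favouring proliferation of basal keratinocytes. RNA levels do not show whether a receptor was cleaved, and in RNA from a whole culture, fewer cells of a type and less RNA per cell cannot be told apart.

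The promoters of HES1 and NRARP are shown because HES1 fell with EGF and NRARP rose with bleogen pB1, and because both genes are classical transcriptional targets of the pathway. HES1 encodes a repressor that is known to bind its own promoter. The windows hold the 250 bases before the transcription start of the RefSeq entry, on build GRCh38.p14, 5′ to 3′ on the strand of the gene. The HES1 window is chr3:194135898-194136147 (plus strand) and the NRARP window chr9:137302272-137302521 (minus strand). Capitals mark TGGGAA, the core of the motif bound by RBPJ, and CACNAG, the N-box bound by HES proteins, on either strand. The letters CTTGTG are the N-box read on the opposite strand.
HES1: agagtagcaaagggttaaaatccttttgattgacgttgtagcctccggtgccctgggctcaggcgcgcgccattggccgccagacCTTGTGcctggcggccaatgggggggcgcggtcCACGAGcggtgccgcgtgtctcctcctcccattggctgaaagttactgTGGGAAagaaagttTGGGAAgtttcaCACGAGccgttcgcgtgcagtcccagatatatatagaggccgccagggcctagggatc
NRARP: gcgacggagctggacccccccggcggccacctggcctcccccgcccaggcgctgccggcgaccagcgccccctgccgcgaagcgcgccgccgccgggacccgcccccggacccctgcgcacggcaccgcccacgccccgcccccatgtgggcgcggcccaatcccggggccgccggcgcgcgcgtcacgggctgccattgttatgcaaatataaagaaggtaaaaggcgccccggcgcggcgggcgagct

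TGGGAA stood in the HES1 window at 2 positions, which begin 84 and 70 bases before the start, and the longer form GTGGGAA began 85 bases before it and overlaps the first of these. The N-box began 165, 132 and 58 bases before the start. The NRARP window held none of the motifs searched. RefSeq promoter entries were matched for 8 of the 10 genes, with 9 windows in all since LFNG has 2, and DLL1 and HEY1 were not matched. TGGGAA was present in 2 of the 9 windows (HES1 and LFNG), against 20.8% of the 35116 promoter windows of all genes. GTGGGAA was present in 1, against 5.43% of all. CACNAG was present in 3 (HES1, LFNG and NOTCH3), against 32.0% of all. CACGTG, the E-box that HES and HEY proteins also bind, was present in none, against 6.34% of all. At least 2 TGGGAA together with at least 3 N-boxes, a count set after the HES1 window was seen, occurred in 13 windows of all genes, or 0.037%. These matches describe letters, and no match says only that the letters are not in this window.

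**Figure D1:**
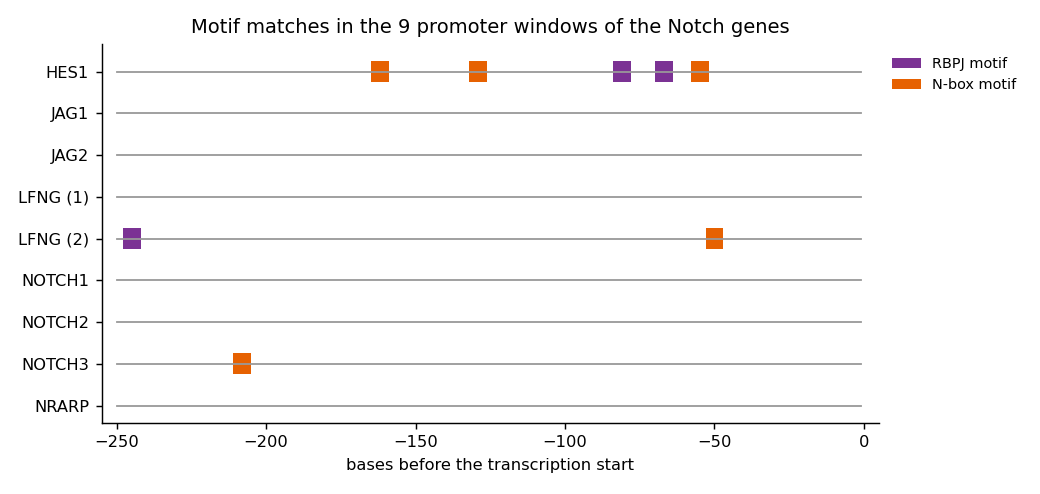
Matches of the RBPJ motif (TGGGAA) and of the N-box motif (CACNAG), on either strand, in the 9 RefSeq promoter windows of 8 Notch genes; the horizontal axis is the distance in bases from the transcription start, LFNG has 2 windows, and bars have the width of the motif. HES1 holds 2 RBPJ motifs and 3 N-box motifs, and 6 of the 9 windows hold neither.

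In untreated cells, the most abundant of these mRNAs were the modifier and the Jagged ligands. On the FPKM scale, which corrects for gene length and depth, LFNG averaged 34.2 and JAG2 30.7, and the ranges of these genes overlapped. JAG1 followed at 25.1 and NOTCH1 at 20.3, each without overlap with its neighbours. HES1 and NRARP, at 16.5 and 15.8, overlapped, as did NOTCH2 and DLL1 at 6.89 and 6.62. NOTCH3 averaged 2.48 and HEY1 0.273. HEY1 was scarce, with 12 expected counts in each untreated library. With bleogen pB1, LFNG, JAG2 and JAG1 again led (32.6, 28.8 and 27.9) and NRARP (25.1) stood above NOTCH1 (19.7) and HES1 (15.9) without overlap. With EGF, JAG1 led at 20.5, DLL1 lay at 10.9 within the range of NOTCH1 (11.7), and HEY1 (1.17) stood above NOTCH3 (0.813) without overlap.

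**Figure D2:**
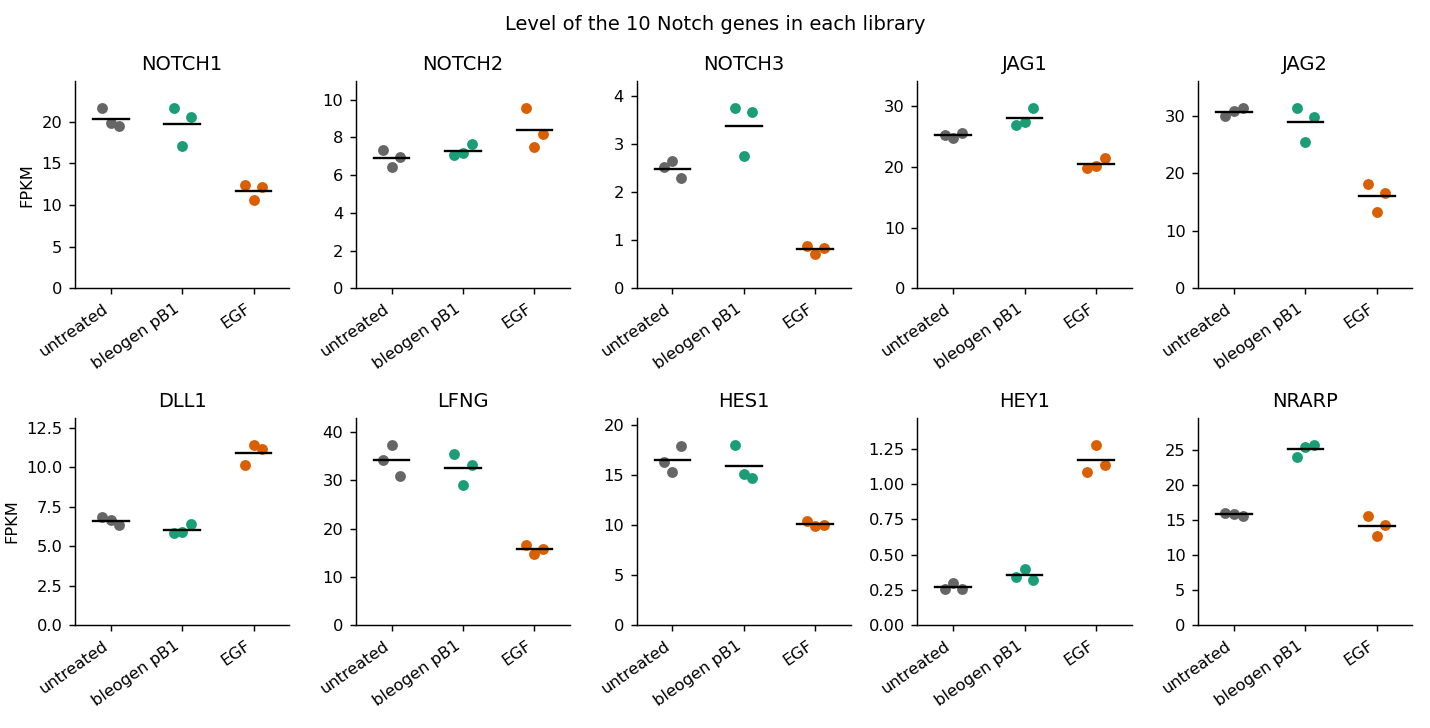
FPKM of each of the 10 Notch genes by group; each point is 1 library (3 per group), the horizontal line is the group mean and each vertical axis starts at 0 with its own scale. The EGF libraries lie below all others for NOTCH1, NOTCH3, JAG1, JAG2, LFNG, HES1 and, narrowly, NRARP and above all others for DLL1 and HEY1, and the bleogen pB1 libraries lie above all others for NOTCH3, JAG1 and NRARP.

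On GRCh38, in the GENCODE annotation, NOTCH1 (chr9:136494433-136546048) and NRARP (chr9:137299631-137302271) lie on the same chromosome. The other receptors lie at chr1:119911553-120100779 (NOTCH2) and chr19:15159038-15200995 (NOTCH3), and the ligands at chr20:10637684-10673999 (JAG1), chr14:105140982-105168824 (JAG2) and chr6:170282206-170306565 (DLL1). LFNG lies at chr7:2512529-2529177, HES1 at chr3:194136148-194138732 and HEY1 on chromosome 8. The libraries were made with a protocol that marks the strand, but whether the counting used it is not stated, so reads of antisense transcripts at these genes cannot be told apart from their own.

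The comparison of each agent with untreated cells asks which genes it changed, and the same thresholds were used throughout: an adjusted p of at most 0.05 from edgeR's quasi-likelihood test, adjusted over all 12394 genes tested, and an absolute log2 fold change of at least 0.5. With EGF, 7 of the 10 Notch genes were differentially expressed, DLL1 and HEY1 upward and NOTCH1, NOTCH3, JAG2, LFNG and HES1 downward. EGF changed 36.9% of all genes tested by the same thresholds, 15.1% upward and 21.8% downward. By the adjusted p alone 9 of the 10 passed, all but NRARP, against 66.1% of all genes. With a fold limit of 1 in place of 0.5, NOTCH3, LFNG and HEY1 passed, against 15.3% of all genes. The CPM values of the 3 EGF and the 3 untreated libraries did not overlap for 9 of the 10, against 70.4% of all genes. The median log2 fold change of the 10 genes was −0.44, against −0.013 for all genes tested. With bleogen pB1, 1 of the 10 passed, NRARP upward, where 1.48% of all genes passed, 0.218% upward and 1.26% downward. By the adjusted p alone it was again NRARP (4.11% of all genes), and with a fold limit of 1 edgeR called 0 of the 10 (0.25% of all genes). An unadjusted p under 0.05 was found for 3 of the 10, against 22.2% of all genes, and DESeq2 called 1, against 1.75% of the 10851 genes to which it gave an adjusted p. The CPM values of the bleogen pB1 and untreated libraries did not overlap for 5 of the 10, NOTCH3, JAG1, DLL1, HEY1 and NRARP, against 29.1% of all genes. The median of the 10 genes was 0.0 on the log2 scale, against −0.001 for all. Both comparisons use the same untreated libraries, so their values are given side by side and were not correlated.

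**Figure D3:**
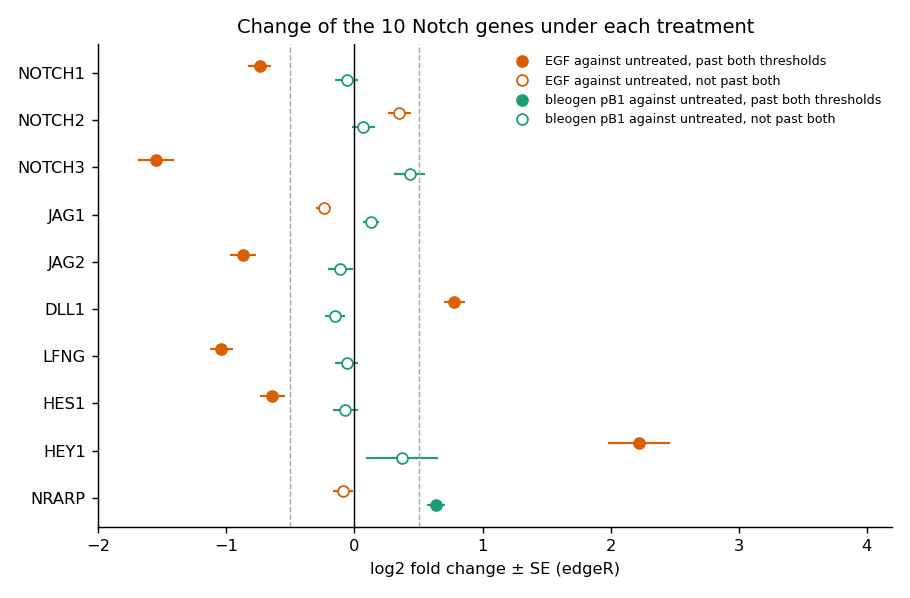
Log2 fold change of each Notch gene against untreated cells, with EGF (orange) and bleogen pB1 (green); bars are the SE of the edgeR estimate from 3 libraries per group, dashed lines mark the fold limit of 0.5 and filled points passed both thresholds. EGF values run from −1.55 (NOTCH3) to 2.22 (HEY1), and the only filled bleogen pB1 point is NRARP at 0.64.

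Among the receptors, NOTCH1 and NOTCH3 fell with EGF and NOTCH2 did not. NOTCH1, the main Notch receptor of keratinocytes, had FPKM values of 21.6, 19.8 and 19.5 in untreated, 12.4, 10.6 and 12.1 in EGF-treated and 21.6, 17.0 and 20.5 in bleogen pB1-treated cells. All EGF libraries lay below all others, whereas the bleogen pB1 and untreated libraries overlapped. Its log2 fold change was −0.74 ± 0.09 (SE) with EGF (edgeR adjusted p = 1.3e-05) and −0.06 ± 0.09 with bleogen pB1 (edgeR adjusted p = 0.73). NOTCH3, a receptor that is itself a known target of Notch signalling, had FPKM values of 2.52, 2.64 and 2.29 in untreated, 0.88, 0.72 and 0.84 in EGF-treated and 3.75, 2.75 and 3.66 in bleogen pB1-treated cells. The 3 groups did not overlap, with EGF lowest and bleogen pB1 highest. The log2 fold change of NOTCH3 was −1.55 ± 0.14 with EGF (edgeR adjusted p = 8.8e-07), a fall by a factor of 2.94. With bleogen pB1 it was 0.43 ± 0.12, which did not pass (edgeR adjusted p = 0.066). Without the second bleogen pB1 replicate, whose NOTCH3 level was the lowest of the 3, it was 0.56 and passed (edgeR adjusted p = 0.018).

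NOTCH2, the receptor whose reads may be shared with the near-identical NOTCH2NL copies, had FPKM values of 7.31, 6.41 and 6.94 in untreated, 9.55, 7.47 and 8.20 in EGF-treated and 7.05, 7.19 and 7.65 in bleogen pB1-treated cells. The EGF libraries lay above all untreated libraries by a small margin. Its expected counts were not whole numbers in all libraries, which shows that reads were divided between genes or transcripts, so its values are uncertain. The log2 fold change with EGF was 0.35 ± 0.09 (edgeR adjusted p = 0.0031), below the fold limit, and with bleogen pB1 0.07 ± 0.09 (edgeR adjusted p = 0.68). The direction of NOTCH2 thus differed from that of the other receptors, and the make-up of receptor mRNA differed accordingly. NOTCH1 made up 68.4% ± 0.452 (SD, n = 3) of the summed FPKM of the 3 receptors in untreated cells, 56.0% ± 1.55 with EGF and 64.7% ± 1.78 with bleogen pB1. NOTCH2 made up 23.2% ± 0.953, 40.1% ± 1.60 and 24.2% ± 2.45 in the same order. The NOTCH1 and NOTCH2 shares of the EGF libraries did not overlap those of untreated libraries (p = 0.1 in an exact permutation test, two-sided, which is as low as 3 against 3 can go). The NOTCH3 share was 8.38% ± 0.674 in untreated cells, 3.89% ± 0.0714 with EGF and 11.1% ± 0.775 with bleogen pB1, without overlap between any of the groups. The NOTCH1 share of the bleogen pB1 libraries also lay below that of all untreated libraries, whereas their NOTCH2 shares overlapped (p = 0.1 for NOTCH1 and NOTCH3 and p = 0.7 for NOTCH2 in the same exact permutation test). The sum over the receptors was 29.7 ± 1.53 FPKM in untreated cells, 20.9 ± 2.03 with EGF and 30.4 ± 2.98 with bleogen pB1 (SD, n = 3).

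Among the ligands, JAG2 fell and DLL1 rose with EGF. JAG2, a Jagged ligand of stratified epithelia, had FPKM values of 30.0, 30.9 and 31.3 in untreated, 18.2, 13.3 and 16.5 in EGF-treated and 31.4, 25.4 and 29.8 in bleogen pB1-treated cells. The EGF libraries lay below all others. Its log2 fold change was −0.87 ± 0.10 with EGF (edgeR adjusted p = 1e-05) and −0.11 ± 0.10 with bleogen pB1 (edgeR adjusted p = 0.57). DLL1, a Delta ligand known from basal keratinocytes, had FPKM values of 6.84, 6.66 and 6.37 in untreated, 10.2, 11.4 and 11.2 in EGF-treated and 5.84, 5.88 and 6.38 in bleogen pB1-treated cells. The EGF libraries lay above all others. The highest bleogen pB1 value lay just above the lowest untreated one in FPKM (6.38 against 6.37) and just below it in CPM (20.5 against 20.7). Its log2 fold change was 0.78 ± 0.08 with EGF (edgeR adjusted p = 2.4e-06) and −0.15 ± 0.08 with bleogen pB1 (edgeR adjusted p = 0.28).

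JAG1, the other Jagged ligand, had FPKM values of 25.2, 24.8 and 25.5 in untreated, 19.8, 20.1 and 21.5 in EGF-treated and 26.8, 27.3 and 29.6 in bleogen pB1-treated cells. The 3 groups did not overlap, but the differences were small. Its log2 fold change was −0.24 ± 0.06 with EGF (edgeR adjusted p = 0.0024), below the fold limit, and 0.13 ± 0.06 with bleogen pB1 (edgeR adjusted p = 0.18). DLL1 made up 10.6% ± 0.482 (SD, n = 3) of the summed FPKM of the 3 ligands in untreated cells, 23.1% ± 2.19 with EGF and 9.62% ± 0.463 with bleogen pB1. The JAG2 share was 49.1% ± 0.693 in untreated cells, 33.7% ± 4.00 with EGF and 45.9% ± 2.83 with bleogen pB1. The ranges of the EGF and untreated libraries did not overlap for either share (p = 0.1 in the same exact permutation test). With bleogen pB1 the DLL1 share lay below and the JAG1 share (44.5% ± 2.37, against 40.2% ± 0.455) above those of all untreated libraries (p = 0.1 for each in the exact permutation test), and the JAG2 shares overlapped. The difference in the DLL1 share between EGF and untreated cells was 12.5 percentage points, and 11.3 to 13.5 with each library left out in turn. The summed ligand level was 62.5 ± 0.617 FPKM in untreated cells, 47.4 ± 2.22 with EGF and 62.8 ± 3.74 with bleogen pB1 (SD, n = 3).

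LFNG (Lunatic fringe) adds N-acetylglucosamine to O-fucose on the receptor, which is known to favour Delta over Jagged ligands. Its FPKM values were 34.3, 37.4 and 30.9 in untreated, 16.6, 14.8 and 15.9 in EGF-treated and 35.5, 29.0 and 33.2 in bleogen pB1-treated cells. The EGF libraries lay below all others, and the untreated and bleogen pB1 libraries overlapped. The log2 fold change was −1.04 ± 0.09 with EGF (edgeR adjusted p = 1.1e-06), a fall by a factor of 2.05, and −0.06 ± 0.09 with bleogen pB1 (edgeR adjusted p = 0.73). MFNG (Manic fringe), which carries out the same reaction, was much less abundant and rose with EGF. MFNG had FPKM values of 1.80, 1.34 and 1.63 in untreated, 3.01, 3.61 and 3.46 in EGF-treated and 1.56, 2.01 and 1.47 in bleogen pB1-treated cells, and its log2 fold change with EGF was 1.14 ± 0.17 (edgeR adjusted p = 6.6e-05). LFNG made up 72.7% ± 1.61 (SD, n = 3) of the summed FPKM of the 3 fringe genes in untreated cells, 52.2% ± 5.93 with EGF and 71.4% ± 0.818 with bleogen pB1. The sum over LFNG, MFNG and RFNG was 47.0 ± 3.45 FPKM in untreated cells and 30.3 ± 1.71 with EGF (SD, n = 3).

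The targets and feedback genes moved in different directions. HES1, the basic helix-loop-helix repressor whose promoter is printed above, had FPKM values of 16.3, 15.3 and 17.9 in untreated, 10.4, 9.84 and 9.98 in EGF-treated and 18.0, 15.1 and 14.7 in bleogen pB1-treated cells. The EGF libraries lay below all others. Its log2 fold change was −0.64 ± 0.10 with EGF (edgeR adjusted p = 0.0001, glmTreat adjusted p against a log2 fold change of 0.5 = 0.11) and −0.07 ± 0.10 with bleogen pB1 (edgeR adjusted p = 0.69). HEY1, a related repressor and Notch target, had expected counts of 12, 12 and 12 in untreated, 51, 59 and 55 in EGF-treated and 14, 19 and 15 in bleogen pB1-treated cells. The EGF counts lay far above all others. The log2 fold change of HEY1 was 2.22 ± 0.24 with EGF (edgeR adjusted p = 4.3e-06), a 4.65-fold rise from a level of 0.273 to 1.17 FPKM. With bleogen pB1 it was 0.37 ± 0.28 (edgeR adjusted p = 0.50), so that at this depth a difference was not detectable. HES1 and HEY1, both known as direct targets, thus changed in opposite directions with EGF.

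NRARP (Notch-regulated ankyrin repeat protein), a feedback inhibitor that binds the Notch intracellular domain and RBPJ, was the only one of the 10 genes to pass with bleogen pB1. Its FPKM values were 16.0, 15.9 and 15.7 in untreated, 15.5, 12.8 and 14.3 in EGF-treated and 24.1, 25.4 and 25.8 in bleogen pB1-treated cells. The bleogen pB1 libraries lay above all others, and the spread within each of these groups was small. The log2 fold change of NRARP with bleogen pB1 was 0.64 ± 0.07 (edgeR adjusted p = 0.00051), a 1.56-fold rise. It passed both thresholds without any one of the 6 libraries compared and with DESeq2, but not when tested against a log2 fold change of 0.5 in place of 0 (glmTreat adjusted p = 1). With EGF the value was −0.09 ± 0.08 (edgeR adjusted p = 0.29). The untreated and EGF libraries overlapped in CPM (counts scaled to the TMM-corrected library size) and lay side by side without overlap in FPKM.

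The direct comparison of EGF with bleogen pB1 asks where the agents differed, and 8 of the 10 genes passed both thresholds in it, against 28.8% of all genes tested (10.8% higher and 18.0% lower with EGF). By the adjusted p alone all 10 passed (58.2% of all genes), with a fold limit of 1 NOTCH3 and HEY1 passed (11.8%), and the CPM values of the groups did not overlap for any of the 10 (62.4%). DLL1 and HEY1 were higher with EGF, by 0.94 ± 0.08 and 1.85 ± 0.23 on the log2 scale. NOTCH1, NOTCH3, JAG2, LFNG, HES1 and NRARP were lower with EGF, with log2 fold changes between −1.98 ± 0.14 (NOTCH3) and −0.57 ± 0.10 (HES1). NRARP differed by −0.74 ± 0.07 (edgeR adjusted p = 4.2e-06). HES1 did not pass the fold limit without the first bleogen pB1 replicate (log2 fold change −0.47), and with glmTreat neither NOTCH1 nor HES1 passed (adjusted p = 0.058 and 0.40). NOTCH2 (0.28 ± 0.09) and JAG1 (−0.37 ± 0.06) had an edgeR adjusted p below the threshold and fold changes under the limit.

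The rest of the pathway was described with a list of 42 other genes, of which 34 passed the count filter. With EGF, 17 of the 34 were differentially expressed, 5 upward and 12 downward, against the 36.9% of all genes given above (15.1% upward and 21.8% downward), and the median log2 fold change of the 34 was −0.33, against −0.013 for all genes. With bleogen pB1 1 of the 34 passed, HES6 downward, against 1.48% of all genes, and the median was −0.04, against −0.001. When tested against a log2 fold change of 0.5 in place of 0 (glmTreat), POFUT1, POGLUT1, ADAM10, NUMBL, ITCH, DTX2 and HES6 lost their EGF calls (adjusted p from 0.073 to 0.45). Among the 4 glycosyltransferases tested, POGLUT1 (−0.55 ± 0.12), an O-glucosyltransferase of the receptor, and POFUT1 (−0.83 ± 0.26), its O-fucosyltransferase, were lower with EGF on the log2 scale, beside the rise of MFNG. POFUT1 had expected counts of 1690, 545 and 1164 in the EGF libraries, and without the second of these its log2 fold change was −0.50 and did not pass, nor did it with DESeq2 (adjusted p = 0.052). POGLUT1 fell under the fold limit without the second or the third EGF replicate (−0.48 and −0.47). Of the 8 proteases and γ-secretase subunits tested, FURIN, which cleaves the receptor on its way to the surface, rose (0.64 ± 0.06) and ADAM10, which cleaves the bound receptor, fell (−0.52 ± 0.06) with EGF. ADAM10 lay at the fold limit and did not pass without the third untreated or the second EGF replicate (−0.50 and −0.48). The γ-secretase subunits tested and ADAM17 passed in neither comparison with untreated cells.

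In the nuclear complex, the Mastermind coactivators MAML2 and MAML3 fell with EGF, with log2 fold changes of −1.06 ± 0.10 and −2.14 ± 0.32 (edgeR adjusted p = 1.2e-06 and 6.9e-05). On the log2(FPKM + 1) scale, which compresses low levels, the value of MAML3 was −0.36, under the fold limit. MAML3 was scarce, with 49, 61 and 58 expected counts in untreated, 19, 10 and 8 in EGF-treated and 67, 45 and 45 in bleogen pB1-treated cells. RBPJ, MAML1 and SPEN did not pass in either comparison with untreated cells. Among 12 regulators of receptor or ligand endocytosis and ubiquitination, 8 passed with EGF, against 36.9% of all genes. The Deltex genes DTX2, DTX3, DTX3L and DTX4, whose products are ubiquitin ligases, fell by 0.62, 0.95, 1.56 and 1.67 on the log2 scale. The expected counts of DTX3L were not whole numbers, so some of its reads were shared and its values are uncertain. With bleogen pB1, DTX2 (−0.42 ± 0.07) and DTX3L (−0.48 ± 0.07) were below the fold limit, with an edgeR adjusted p of 0.007 and 0.0014, and DTX3L passed without the second untreated or the first bleogen pB1 replicate (−0.53 and −0.51). ITCH, a ubiquitin ligase of Notch, and NUMBL, a relative of the Notch inhibitor NUMB, rose with EGF by 0.56 ± 0.06 and 0.60 ± 0.10 on the log2 scale. Both fell under the fold limit with upper-quartile factors (0.46 and 0.49) and on the log2(FPKM + 1) scale (0.48 and 0.46).

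The Neuralized genes, whose products are ubiquitin ligases of the ligands, changed in opposite directions with EGF, both at low levels, where a gene passes the count filter through the group in which it is high. NEURL1 had 6, 5 and 11 expected counts in untreated, 45, 81 and 68 in EGF-treated and 9, 13 and 16 in bleogen pB1-treated cells (log2 fold change with EGF 3.15 ± 0.35, edgeR adjusted p = 5.9e-06). NEURL1B had 28, 39 and 44 counts in untreated, 2, 1 and 5 in EGF-treated and 49, 33 and 39 in bleogen pB1-treated cells (log2 fold change with EGF −3.70 ± 0.44, edgeR adjusted p = 9.5e-06). With so few counts the size of these changes depends on the small counts of the lower group, and on the log2(FPKM + 1) scale NEURL1B was under the fold limit (−0.35). Of the other HES genes, HES4 fell with EGF, from FPKM values of 31.0, 30.6 and 26.0 in untreated to 10.8, 10.9 and 10.9 in EGF-treated cells (log2 fold change −1.36 ± 0.12, edgeR adjusted p = 1.1e-06). HES4 had 33.1, 24.3 and 29.6 FPKM with bleogen pB1, within the range of untreated cells or close to it.

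HES6, which encodes a HES protein known for antagonizing HES1, was the only gene of the list to pass in both comparisons with untreated cells. Its expected counts were 62, 64 and 61 in untreated, 34, 38 and 42 in EGF-treated and 33, 34 and 20 in bleogen pB1-treated cells. The untreated libraries lay above all others. The log2 fold change of HES6 was −0.68 ± 0.22 with EGF and −1.14 ± 0.22 with bleogen pB1 (edgeR adjusted p = 0.014 for each). On the log2(FPKM + 1) scale the EGF value was −0.47, under the fold limit. The bleogen pB1 call was lost with glmTreat (adjusted p = 0.46) and without the first or the second untreated replicate or the third bleogen pB1 replicate (edgeR adjusted p = 0.069, 0.066 and 0.073), and DESeq2 gave HES6 no adjusted p in this comparison. NOTCH4, DLL4, APH1B, HES5 and HEY2 had too few counts to be tested, and DLL3, DTX1 and HEYL were not listed in any library.

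**Figure D4:**
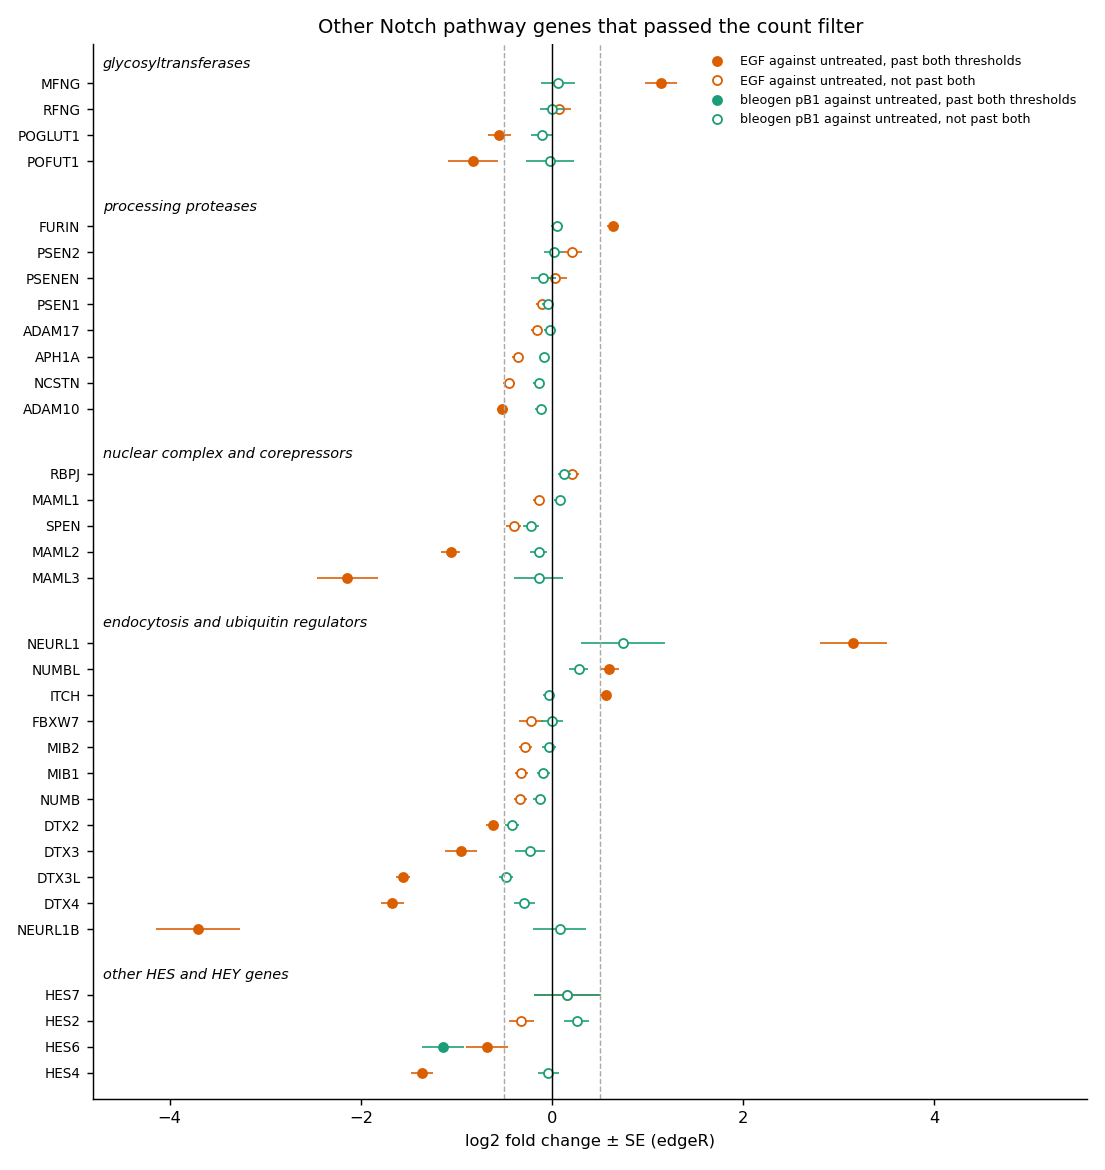
Log2 fold change ± SE (edgeR, 3 libraries per group) of the other Notch pathway genes that passed the count filter, all but 1 of the 34, by role, for EGF (orange) and bleogen pB1 (green) against untreated cells; dashed lines mark the fold limit of 0.5 and filled points passed both thresholds. With EGF 5 genes pass upward and 12 downward, and HES6 is the only filled bleogen pB1 point.

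Markers of keratinocyte layers moved beside these genes with EGF. Of 5 basal genes, the keratin KRT14 (0.88), the integrin ITGB1 (0.72) and the hemidesmosome collagen COL17A1 (0.66) rose on the log2 scale and the keratin KRT5 (−1.12) fell. The transcription factor TP63 lay at the fold limit (0.50) and did not pass without the first EGF (0.39) or the second untreated replicate (0.48). TP63 also did not pass under several other settings, among them upper-quartile factors (0.40), limma on log2(FPKM + 1) (0.43) and glmTreat (adjusted p = 0.63). Of 3 suprabasal genes with enough counts, the keratin KRT1 (−4.08 ± 0.34) and the cornified envelope protein IVL (−3.96 ± 0.32) fell and the keratin KRT10 (0.67 ± 0.12) rose. KRT10 did not pass when tested against a log2 fold change of 0.5 (glmTreat adjusted p = 0.12). KRT1 had 8.33 ± 3.21 expected counts with EGF, 146 ± 28.8 in untreated and 266 ± 72.5 in bleogen pB1-treated cells (SD, n = 3). Like the Neuralized genes, KRT1 passed the count filter through the groups in which it is high, so the size of its fall with EGF is uncertain. DSG1 and SBSN were not tested. With bleogen pB1, KRT1 just passed (0.83 ± 0.21, edgeR adjusted p = 0.048), and it did not pass without the first or the third bleogen pB1 replicate or without any one untreated replicate (0.59 to 0.93, edgeR adjusted p = 0.069 to 0.15). IVL did not pass (−0.52 ± 0.23, edgeR adjusted p = 0.20), but did without the first bleogen pB1 replicate (−0.82, edgeR adjusted p = 0.026). The part of these layer markers in the Notch results was not tested.

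All 9 keratinocyte markers had a mean FPKM of at least 1 in every group, with sums from 4953 to 6687 per library. The summed level of 6 fibroblast markers was 0.21 to 0.34 FPKM with EGF, 1.42 to 1.80 in untreated and 1.14 to 1.85 in bleogen pB1-treated cells, with none at a mean of 1, and COL1A2 was at 0 in all treated libraries. The 5 leukocyte markers summed to 10.3 to 11.4 FPKM with EGF and 5.87 to 6.99 in the other libraries, nearly all of it CD68. Of 5 melanocyte markers only MITF had a mean of at least 1, and the 4 endothelial markers summed to at most 0.18 FPKM. Whether these small differences played a part in the Notch values was not tested.

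The genes with the pattern most like NOTCH1, JAG1 and HES1 were named by the root mean square difference of log2 CPM, centred on the untreated mean, over the 9 libraries and among 10867 genes with a mean of at least 50 counts. For NOTCH1 they were NFIB (0.05), IQCE (0.05) and IGF1R (0.056), against a median of 0.496 for all genes. IGF1R encodes the receptor of insulin-like growth factor 1 and NFIB a transcription factor. For JAG1 they were NDUFB7 (0.045), SLCO3A1 (0.048) and TMCO3 (0.053), against a median of 0.303. For HES1 they included CALD1 (0.064) and ERMP1 (0.067), against a median of 0.445. None of the genes named is a member of the pathway lists used here.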

How the data were processed

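RNA from 3 untreated, 3 EGF-treated and 3 bleogen pB1-treated HaCaT libraries was analysed, with groups taken from the titles and treatment labels. Polyadenylated RNA was sequenced by BGI, and per the labels reads were mapped to GRCh38.p12. The counting program is not given in the sources used here. The authors deposited expected counts per gene (estimates, not scaled for depth), FPKM values (scaled for gene length and depth) and gene lengths. A gene that a file does not list was given a count of 0 there. The libraries held 20288417 to 21320994 expected counts (median 20629237), so that 3 counts, the floor for a count of 0, correspond to 0.141 to 0.148 CPM, which covers counting error only.

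After rounding to whole numbers, the expected counts entered edgeR 4.0.16 (R 4.3.3): filterByExpr, TMM factors (0.9635 to 1.0238), glmQLFit and glmQLFTest, 1 coefficient per group, 9 libraries in one fit and Benjamini-Hochberg adjustment over 12394 genes. The thresholds, an adjusted p of at most 0.05 and an absolute log2 fold change of at least 0.5, are those of the study, which used DESeq2. SE was derived from the fold change and the quasi-likelihood F statistic (|log2FC|/√F). Shares were compared with two-sided exact permutation tests, which cannot give a p under 0.1. The alternatives were DESeq2 1.42.0, limma 3.58.1 on log2(FPKM + 1) or log2(FPKM + 0.1), other factors, filters and fold limits, glmTreat, left-out libraries and a replicate block.

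The genes and lists were chosen with earlier results of these data known. The genes named are all 10 Notch genes, every gene of the list of 42 that passed in EGF or bleogen pB1 against untreated, and for NOTCH1, JAG1 and HES1 the 3 genes nearest in pattern. A few genes that this rule or the marker lists include are not reported here by name and stay in the fits, counts and sums. Promoter windows are from RefSeq (GRCh38.p14) and gene coordinates from GENCODE release 44, 1-based. The fits and the motif search were tested on simulated data.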

Additional observations from a re-analysis of the deposited data

How the results depend on the processing

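No value past both thresholds changed direction under the settings tried. For the 10 Notch genes the counts past both thresholds were 7 (EGF), 1 (bleogen pB1) and 8 (EGF against bleogen pB1). A log2 fold limit of 1 left 3, 0 and 2 of them. Testing against a log2 fold change of 0.5 (glmTreat) left 0 for bleogen pB1, and leaving out single libraries gave 1 to 2 for bleogen pB1, the second gene being NOTCH3 without the second bleogen pB1 replicate. For the 34 other pathway genes the counts were 17, 1 and 13. glmTreat gave 10, 0 and 8, and an adjusted p alone 27, 3 and 24. A log2 fold limit of 1 gave 8 (EGF) and 7 (EGF against bleogen pB1). Of all genes tested, 36.9%, 1.48% and 28.8% passed both thresholds, and 66.1%, 4.11% and 58.2% passed the adjusted p alone. With a fold limit of 1 the shares of all genes were 15.3% (EGF) and 11.8% (EGF against bleogen pB1). The glmTreat share of all genes was not counted. DESeq2, which gave HES6 no adjusted p, called 0 of the 34 for bleogen pB1, against 1.75% of the genes to which it gave an adjusted p. At an unadjusted p under 0.05 in edgeR 7 of the 34 passed for bleogen pB1, against 22.2% of all genes. Leaving out single libraries gave 0 to 2 for bleogen pB1, and limma with a filter at an FPKM of 1 gave 8 for EGF against bleogen pB1. That filter leaves out MAML3, NEURL1 and NEURL1B, which stayed under an FPKM of 1 in every library, and with it FURIN and ITCH had log2 fold changes of 0.49. The cause of the other differences was not tested. Upper-quartile factors moved the median of all genes with EGF from −0.013 to −0.118 on the log2 scale and kept the calls of the Notch genes. Same-numbered replicates deviated together in 2 of 9 pairs (correlation above 0.1, range −0.0304 to 0.207). Pairs with different numbers ranged from −0.253 to 0.163. Most same-numbered correlations were positive and most of the others negative. The deviations were taken from the mean of each group, so the signs of same-numbered and other pairs are tied and are not separate observations. The numbers were not taken to pair the samples. With the replicate block the counts of Notch genes were 7, 1 and 8 and those of the other pathway genes 17, 1 and 13. On log2(FPKM + 1), where the pseudocount compresses low levels, the EGF log2 fold changes of HEY1 and NOTCH3 were 0.77 and −0.94. Under glmTreat HES1 lost its call with EGF, and NOTCH1 and HES1 theirs between EGF and bleogen pB1, which left 6 Notch genes in each comparison. HEY1, at 12 counts in each untreated library, and the Neuralized genes are limited by depth.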

Other observations

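The annotation in the deposited files assigns 47 further genes to Notch signalling that stand in neither list above, a set taken after the files were seen and described without a test. Of the 34 that passed the count filter, 15 were differentially expressed with EGF, 6 upward and 9 downward, against 36.9% of all genes tested, and their median log2 fold change was −0.05. The 6 with an absolute log2 fold change of at least 1, against 15.3% of all genes, are described, a choice made after their values were seen. FAT4, a large protocadherin, fell from 1.88 ± 0.16 FPKM in untreated to 0.347 ± 0.0404 with EGF (SD, n = 3), and its level with bleogen pB1 was 1.48 ± 0.178 (log2 fold change with EGF −2.38 ± 0.12, edgeR adjusted p = 8e-09). DNER, a Notch ligand known from neurons, rose from 0.36 ± 0.0656 to 0.893 ± 0.0702 FPKM with EGF (log2 fold change 1.37 ± 0.24, edgeR adjusted p = 0.00023). CHAC1, a glutathione-degrading enzyme also known for blocking the processing of Notch by furin, rose from 6.04 ± 1.14 to 19.9 ± 7.86 FPKM (log2 fold change 1.79 ± 0.30, edgeR adjusted p = 0.00018). ITGB1BP1, a protein that binds the integrin β1 tail, rose from 23.3 ± 1.76 to 45.7 ± 6.02 FPKM (log2 fold change 1.02 ± 0.11, edgeR adjusted p = 4e-06). PTP4A3, a phosphatase, and TIMP4, an inhibitor of metalloproteinases, had the widest log2 fold changes (−2.91 ± 0.62 and 2.87 ± 0.62, edgeR adjusted p = 0.0011 and 0.0012) but at most 17 and 20 expected counts in any untreated or EGF library. PTP4A3 had 0 to 3 counts with EGF and TIMP4 0 to 3 in untreated cells. Like the Neuralized genes, each passed the count filter through the group in which it is high, so the size of these changes is uncertain. With bleogen pB1, edgeR and DESeq2 each called 0 of the 34 past both thresholds, against 1.48% and 1.75% of all genes with an adjusted p. By edgeR's adjusted p alone 1 passed (FOXA1), against 4.11% of all genes. At an unadjusted p under 0.05 there were 6, against 22.2% of all genes.

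The second bleogen pB1 replicate had the lowest level of the 3 bleogen pB1 libraries in 23 of the 34 other pathway genes, the first in 4 and the third in 7. Among the 10 Notch genes it was the lowest in 4 (NOTCH1, NOTCH3, JAG2 and LFNG), the first in 5 and the third in 1. The same count over all genes tested was not made, so these counts are not a result about the pathway genes. In DTX4, for example, the bleogen pB1 libraries differed from the untreated mean by −0.06, −0.60 and −0.25 on the log2 scale, and in MAML2 by 0.05, −0.37 and −0.13. NRARP was 0.59, 0.66 and 0.68 above the untreated mean in the same libraries.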
